A study of Mus musculus with 2 samples.

Results

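The variable (V) segments of the T-cell receptor alpha chain and its constant region gene, Trac, were described in total RNA of the newborn mouse thymus. Members were taken as genes whose GENCODE M21 symbol starts with Trav, including names with dv, plus Trac, and were matched by gene identifier. Of 129 such genes 104 were measured, 103 V segments and Trac, among 43346 genes in the tables. The other 25 were not analysed here. The 2 libraries each held RNA from both lobes of the thymus of a different pup, strain B6NCrl, on postnatal day 0, and both pups had 1 mother. They form 1 group with no treatment, and replicate 1 is given before replicate 2 throughout. Levels are TPM, a relative abundance scaled by transcript length and by the total of the library.

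During V(D)J recombination a developing T cell joins a V segment to a J segment, and the joined exon is spliced to the constant region. In the alpha locus this occurs mainly at the CD4 CD8 double-positive stage in the thymic cortex, where the first joins tend to use V segments near the J cluster and later joins move outward. Segments with dv in their name can join into either an alpha or a delta chain. The letters d and n after the subfamily number mark copies in duplicated parts of the mouse locus. In bulk tissue, fewer cells of a type and less RNA per cell cannot be told apart. The gene tables do not separate reads of rearranged from reads of unrearranged V segments.

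The coding ends of the 5 segments below are shown because they were among the most abundant, and Trav11 because its level depended on how reads were divided between copies. Each line holds the last 60 bases of the annotated transcript from GENCODE M21 (GRCm38, + strand), 5′ to 3′, with the codon of the conserved cysteine that opens the antigen-binding CDR3 loop in capitals.
Trav14-2 (chr14:53641166-53641225): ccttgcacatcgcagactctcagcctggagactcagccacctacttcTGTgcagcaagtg
Trav3-3 (chr14:53666447-53666506): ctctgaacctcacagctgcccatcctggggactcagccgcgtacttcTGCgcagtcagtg
Trav21-dv12 (chr14:53876693-53876752): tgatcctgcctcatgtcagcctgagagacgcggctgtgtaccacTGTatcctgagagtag
Trav4-4-dv10 (chr14:53684118-53684177): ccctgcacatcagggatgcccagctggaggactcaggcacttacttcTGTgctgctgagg
Trav13-4-dv7 (chr14:53757862-53757921): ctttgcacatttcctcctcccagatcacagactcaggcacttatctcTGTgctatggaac
Trav11 (chr14:53519800-53519859): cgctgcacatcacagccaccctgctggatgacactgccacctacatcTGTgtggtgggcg
From the first base of this codon 13 bases remained to the annotated end in each line except that of Trav21-dv12, where 16 remained. The cysteine was encoded by TGC in Trav3-3 and by TGT in the others.

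The copies of subfamily 14 show why reads had to be divided. The next lines hold a stretch of 60 bases ending at the same place in each segment (GENCODE M21, GRCm38, + strand), with bases that differ from Trav14-2 in capitals.
Trav14-2 (chr14:53641162-53641221): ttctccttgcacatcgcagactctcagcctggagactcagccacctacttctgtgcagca
Trav14-1 (chr14:53554495-53554554): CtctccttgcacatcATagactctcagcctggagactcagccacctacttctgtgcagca
Trav14-3 (chr14:53763631-53763690): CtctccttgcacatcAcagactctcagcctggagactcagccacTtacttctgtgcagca
Trav14d-1 (chr14:52856103-52856162): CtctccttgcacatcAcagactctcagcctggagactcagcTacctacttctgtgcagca
Trav14d-2 (chr14:52949106-52949165): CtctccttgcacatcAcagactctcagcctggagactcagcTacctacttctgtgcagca
Trav14n-2 (chr14:53260116-53260175): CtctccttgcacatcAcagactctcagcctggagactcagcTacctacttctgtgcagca
Trav14-1 and Trav14-3 each differed from Trav14-2 at 3 bases here. Trav14d-1, Trav14d-2 and Trav14n-2 also differed at 3, and the stretch was the same in all of them. Over the whole M21 transcript, Trav14d-2 and Trav14n-2 had 0% of their 100-base windows in no other measured gene, against 95.5% for Trav14-2. The 60 bases shown do not set this percent, which was 100% for Trav14-1 and 76.8% for Trav14-3.

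Libraries held 39045711 and 41576378 expected counts over all genes. Of the markers of double-positive thymocytes 7 of 7 were at 1 TPM or more in both libraries, with sums of 2075 and 2189 TPM. This list includes Ptcra, Rag1 and Rag2, which also act before an alpha chain is made, so it does not mark that stage alone. Over all genes in the tables the share at that level was 32.2%. Thymic epithelial markers were found at 4 of 4, gamma-delta T cell markers at 4 of 5 (sums of 407 and 551 TPM, Il17a below), NK cell markers at 3 of 3 and erythroid markers at 3 of 3. B cell markers were found at 0 of 3, with a summed level of 1.59 and 1.22 TPM. Of the NK cell markers only Gzma was high, with 275 and 316 TPM. Ncr1 had 1.62 and 1.11 TPM and Klrb1c 1.27 and 1.32 TPM, near the B cell marker Cd79a with 1.20 and 0.88 TPM. The counts of NK and B cell markers found therefore depend on the limit of 1 TPM. The part of these other cells in the levels below was not tested.

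Trac, the constant region shared by all alpha chains (chr14:54220521-54224206), had 478 and 523 TPM, from 4424 and 5225 expected counts. It ranked 305 of all genes by mean TPM, at 500.4 ± 32.0 (SD, n = 2). The deposited lower and upper bounds for its TPM, whose level is not stated, ran over 455 to 483 in replicate 1 and over 500.1 to 528 in replicate 2. Those bounds did not overlap, while the log2 ratio of scaled counts, replicate 1 over replicate 2, was −0.18. The bounds were given for each library on its own, so they do not measure the spread between pups.

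The 103 V segments summed to 535 and 525 TPM, a mean of 529.99 ± 6.75 (SD, n = 2). Their sum was thus close to the level of Trac: the V sum over Trac was 1.12 in replicate 1 and 1.00 in replicate 2. The V sum made up 0.0535% and 0.0525% of all TPM. It rested on 4415 and 4647 expected counts spread over many genes, so that the median V segment had 3.68 and 3.07 TPM, and 72 of the 103 had a mean of under 50 counts.

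A V segment was called detected at 1 TPM or more in both libraries, and 73 of 103 were (70.9%). Over all genes in the tables the share was 32.2%. Of the 98 segments annotated as functional genes (TR_V_gene) 71 were detected, and of the 5 annotated as pseudogenes 2 were. No segment dominated: the 5 highest held 21.6% and 20.2% of the V sum, and the 20 highest held 52.6% and 54.1%.

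Trav14-2 was the highest V segment, with 27.5 and 24.6 TPM. Trav3-3 followed with 26.6 and 24.3 TPM, and Trav21-dv12, the measured V segment nearest to Trac, with 24.8 and 22 TPM. The ranges of these segments over the libraries overlapped, so their order does not hold beyond the spread. Trav4-4-dv10 came next with 19.7 and 18.6 TPM, below all of them in both libraries. Trav14d-1 had 17.0 and 16.8 TPM, but 0% of its windows were found in no other measured gene. Trav13-4-dv7 had 14.6 and 18.7 TPM, the higher value in replicate 2. Behind these, neighbours in the order overlapped, except that Trav13-1 was above Trav6-7-dv9 in both libraries. Trav13-1 had 15.47 and 15.03 TPM, Trav6-7-dv9 13.01 and 14.95 TPM, and Trav14-3 15.2 and 12.5 TPM. Trav14-1 had 10.7 and 13.6 TPM, Trav19 10.9 and 12.5 TPM, and Trav16 11.4 and 11.2 TPM. The last of the 15 highest were Trav12-2 with 10.4 and 11.7 TPM, Trav5-4 with 13.3 and 8.67 TPM, and Trav9-4 with 9.25 and 10.7 TPM. These 15 came from 11 subfamilies, 4 of them from subfamily 14 and 4 with dv in the name.

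Sums of counts over a V subfamily, the segments that share the number after Trav and much of their sequence, depend little on how reads are divided inside it. Sums of TPM also depend on the length of the segment or transcript to which reads were assigned. Subfamily 8 held a mean of 2.84% of the V sum by TPM and 6.21% by counts. Of 21 subfamilies, 14 was the highest in both libraries, with 96.9 and 94.6 TPM over 9 measured segments and 18.1% ± 0.0743 of the V sum (SD, n = 2). Subfamilies 6 and 13 followed, with 61.5 and 57.8 TPM over 15 segments and 60.1 and 58.3 TPM over 11. Their ranges overlapped. Subfamily 3 reached 44.9 and 43.1 TPM with only 5 measured segments, of which Trav3-3 was the highest. Subfamily 4 reached 39.10 and 39.97 TPM, led by Trav4-4-dv10, and subfamily 12 reached 36.2 and 38.9 TPM, led by Trav12-2.

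**Figure D1:**
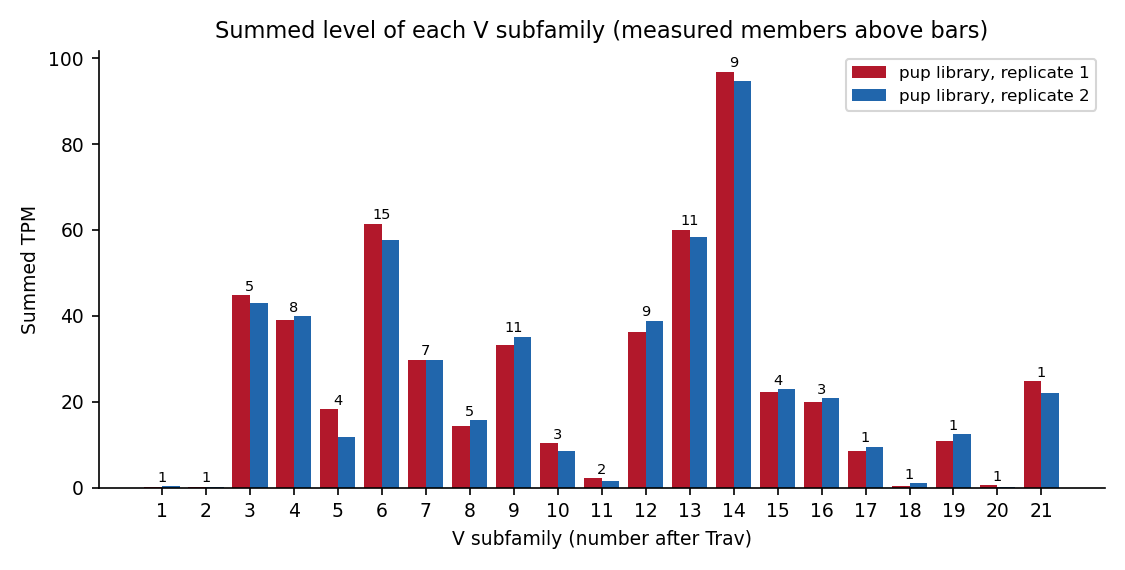
Summed TPM (linear axis from 0) of the measured segments of each of the 21 V subfamilies, with a bar for each of the 2 libraries and the number of measured segments above the bars. Subfamily 14 stands highest in both libraries, at 96.9 and 94.6 TPM, and subfamilies 1, 2, 18 and 20 are near 0.

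Middle levels were found for subfamily 9 (33.2 and 35.2 TPM, led by Trav9-4), subfamily 7 (29.9 and 29.8 TPM, led by Trav7-6), subfamily 15 (22.2 and 22.9 TPM, led by Trav15-1-dv6-1) and subfamily 16 (19.9 and 20.9 TPM, led by Trav16). Subfamily 5 had 18.3 and 11.8 TPM, led by Trav5-4, and was the subfamily that differed most between libraries at 50 or more counts. Subfamily 8 had 14.4 and 15.8 TPM, led by the pseudogene Trav8-2, and subfamily 10 had 10.4 and 8.47 TPM, led by Trav10. The 7 subfamilies with 1 measured segment covered nearly the whole scale. Trav21-dv12 and Trav19 stood among the 15 highest segments, and Trav17 had 8.62 and 9.61 TPM. Trav18 had 0.45 and 1.1 TPM, Trav20, a pseudogene, 0.61 and 0.14 TPM, Trav2 0.30 and 0.28 TPM, and Trav1, the V segment of the receptors of mucosal-associated invariant T cells, 0.13 and 0.47 TPM. Trav1 rested on 1 and 4 counts, so its level could not be told from that of Trav2 at this depth.

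Levels were higher near Trac. All 104 members lie on the + strand of chromosome 14, and the measured V segments end between 1792 and 344 kb before the start of Trac. They were divided by order into 34 distal, 35 middle and 34 proximal segments. The distal segments, Trav1 to Trav13d-3, summed to 90.4 and 89.5 TPM, with a median of 1.31 and 1.72. The middle segments, Trav8d-2 to Trav7-4, summed to 110 and 103 TPM, with a median of 2.56 and 2.22. The proximal segments, Trav8-1 to Trav21-dv12, summed to 335 and 333 TPM, with a median of 8.57 and 8.50. The proximal segments therefore held 62.9% ± 0.545 of the V sum (SD, n = 2). Detection followed the same order, with 17 of 34 distal, 25 of 35 middle and 31 of 34 proximal segments detected.

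**Figure D2:**
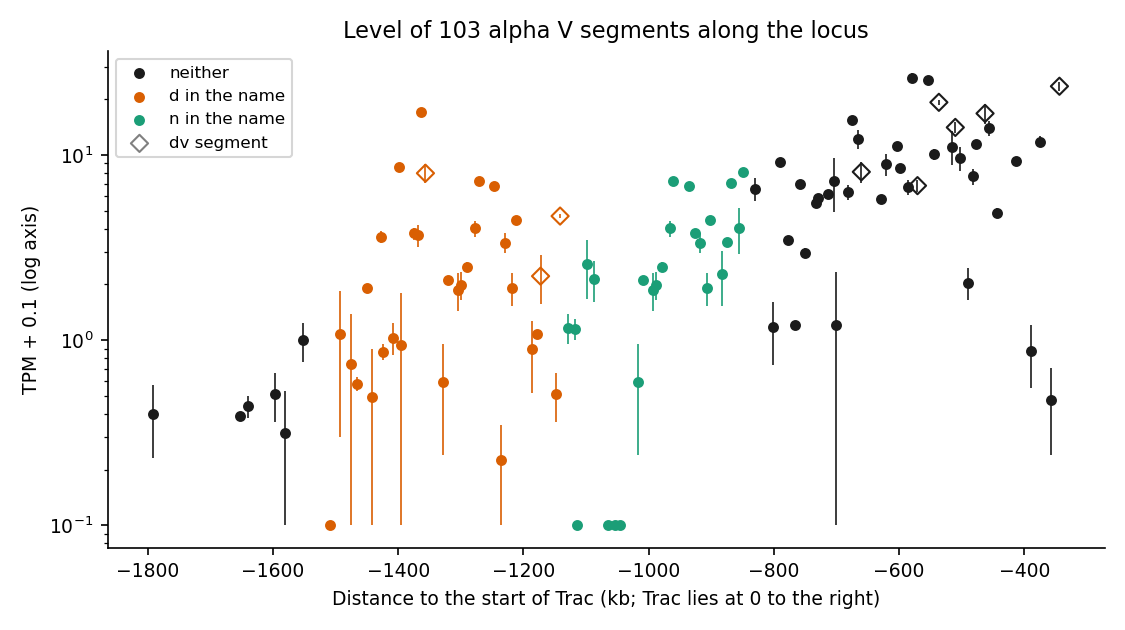
Mean TPM + 0.1 (log axis) of each of the 103 measured V segments against the distance from its end to the start of Trac in kb, coloured by d, n or neither in the name, with diamonds for dv segments and vertical lines joining both libraries. The proximal segments on the right lie mostly above 5 TPM, and the 6 segments farthest from Trac on the left lie below 1.2 TPM in both libraries.

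Across the 103 segments the correlation of log2(TPM + 0.1) with nearness to Trac was 0.58 (Pearson) and 0.63 (Spearman). These values describe points that share libraries, copies and the division of reads, and no p-value was attached. For the 32 segments with 90% or more of their windows in no other measured gene they were 0.73 and 0.64. Inside the 40 proximal-side segments without d or n, Trav7-2 to Trav21-dv12, they were 0.16 and 0.36, and across the 57 d and n copies 0.17 and 0.26. With the 21 subfamily sums placed at their mean position, the Spearman value was 0.0416. These sums run over 1 to 15 segments. This value therefore cannot show whether the order along the locus holds between subfamilies.

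The locus can be read in 3 stretches by name. The 6 segments farthest from Trac, Trav1 to Trav6-2, were low: Trav3-1 had 0.28 and 0.40 TPM, Trav5-1 0.56 and 0.26 TPM, Trav6-1 0.43 and 0 TPM, and Trav6-2 1.14 and 0.66 TPM. None of the 6 was detected, although all had at least 90% of their windows in no other measured gene, and they held 0.531% and 0.394% of the V sum. The 57 d and n copies held 31.7% and 31.0% of it, and the 40 segments from Trav7-2 onward held 67.8% and 68.7%. Taking only segments with at least 90% unshared windows, the medians were 0.37 and 0.34 TPM for the 6 farthest, 3.60 and 2.94 TPM for 6 d or n copies, and 8.38 and 9.14 TPM for 20 segments from Trav7-2 onward. Unshared here means among measured genes. Over all of M21 Trav7-2 had 0%, Trav13d-1 47.5% and Trav7-6 79.1% of windows in no other gene, and 5 members that were not analysed here share windows with measured ones, so that reads of theirs could be counted on these segments.

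Nearness to Trac was not sufficient for a high level. Trav18 and Trav20 lie between Trav17 and Trav21-dv12, 389 and 357 kb before Trac, and neither was detected. Their windows were 100% unshared among measured genes. Farther out, Trav4-2 had 0.63 and 1.51 TPM while its neighbours Trav7-2 and Trav6-3 had 7.41 and 5.52 TPM and 8.99 and 9.19 TPM. Trav6-4 had 1.06 and 1.16 TPM beside Trav7-4 with 6.53 and 7.26 TPM.

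Segments without d or n carried most of the RNA. The 46 such segments held 68.7% ± 0.505 of the V sum, the 32 d copies 18.03% ± 0.366 and the 25 n copies 13.3% ± 0.870 (SD, n = 2 each). Over segments with at least 90% unshared windows the shares were 92.5%, 4.30% and 3.23%, and over those with whole counts 84.3%, 11.4% and 4.25%. The first set holds only 6 of the 57 d and n copies. The second includes divided segments such as Trav9d-3 and Trav9n-3, with 11 and 17 counts each and 0% unshared windows. The shares in both sets thus depend on which copies remained in them. The gap between d and n copies also rests on divisions of reads such as that between Trav14d-1 and Trav14n-1. Medians were 6.66 and 7.07 TPM without either letter, 1.67 and 2.16 TPM for d copies, and 2.56 and 2.21 TPM for n copies. In 26 of 31 sets that hold an unsuffixed segment and at least 1 measured copy, the unsuffixed segment was above each copy in both libraries. It was also above the sum of its copies in 24 of 31. In the 10 sets whose members all had at least 50% unshared windows, the counts were 10 and 9. Set 8-2 is among them, and its Trav8-2 level includes a 2371-nt transcript. The other Trav8-2 transcript alone had 3.90 and 5.67 TPM, against 4.11 and 4.42 TPM for the sum of its copies.

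**Figure D3:**
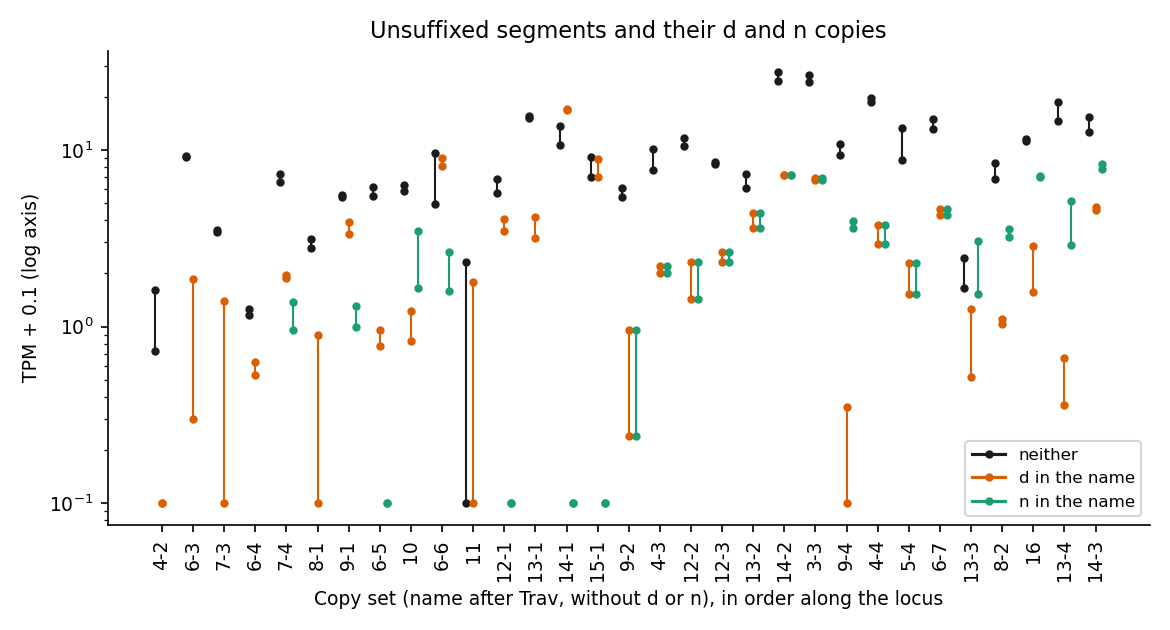
TPM + 0.1 (log axis) of the unsuffixed segment and of its d and n copies in each of 31 copy sets, in order along the locus, with a point for each library and a line joining the 2 libraries. The unsuffixed segment is above each copy in both libraries in 26 sets, and the exceptions are sets 6-6, 11, 14-1, 15-1 and 13-3.

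Sets with mostly unshared windows showed this in single segments. Trav13-1 had 15.47 and 15.03 TPM, against 4.09 and 3.07 TPM for Trav13d-1. Trav14-3 had 15.2 and 12.5 TPM, against 4.47 and 4.68 TPM for Trav14d-3-dv8 and 7.71 and 8.29 TPM for Trav14n-3. Trav13-4-dv7 had 14.6 and 18.7 TPM, against 5.05 and 2.81 TPM for Trav13n-4 and 0.56 and 0.26 TPM for Trav13d-4. In these sets the ranges over the libraries did not overlap. Trav14-2 and Trav3-3 also exceeded their copies: Trav14d-2 and Trav14n-2 had 7.14 and 7.08 TPM each, and Trav3d-3 and Trav3n-3 had 6.80 and 6.65 TPM each.

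Among the copies themselves, levels varied from 0 to the 17.0 and 16.8 TPM of Trav14d-1. Of the n copies with most windows unshared, Trav14n-3 was the highest, and Trav16n had 6.99 and 6.96 TPM against 11.4 and 11.2 TPM for Trav16 and 1.46 and 2.77 TPM for Trav16d-dv11. Here the n copy was above the d copy in both libraries. Trav8n-2 had 3.10 and 3.48 TPM and Trav8d-2 1.01 and 0.94 TPM, in the same direction, and Trav13n-4 and Trav13d-4 also stood in that order. In set 9-1 the direction was the other: Trav9n-1, a pseudogene, had 0.90 and 1.20 TPM, against 3.79 and 3.25 TPM for Trav9d-1. In set 7-4 the n copy was likewise lower, with 1.28 and 0.85 TPM for Trav7n-4 against 1.79 and 1.85 TPM for Trav7d-4. The n copies lie nearer to Trac than the d copies, and no single direction held over these sets.

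The unsuffixed segments outside the 15 highest formed a broad middle. Trav7-6 had 8.13 and 11.0 TPM, Trav4-3 7.60 and 10.0 TPM, and Trav12-3 8.51 and 8.24 TPM. Trav13-2 had 5.96 and 7.26 TPM, Trav12-1 5.58 and 6.78 TPM, and Trav10 6.27 and 5.78 TPM. These overlapped with their neighbours in level. Trav9-2 had 5.35 and 6.00 TPM, Trav9-1 5.35 and 5.48 TPM, and Trav6-5 6.08 and 5.38 TPM, which made them nearly equal although they belong to different sets. Trav3-4, another segment of subfamily 3 and nearer to Trac than Trav3-3, had 4.45 and 5.09 TPM, below Trav3-3 in both libraries. Trav7-3 had 3.43 and 3.33 TPM and Trav8-1 2.68 and 3.03 TPM.

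Equal values for such copies are a property of the division of reads. In 11 pairs of a d and an n copy the deposited values were identical in both libraries, and in each pair the annotated transcript of one lay inside that of the other. The split inside such a pair is not measured, and for pairs that also share windows with other segments, such as Trav9d-2 and Trav9n-2 or Trav14d-2 and Trav14n-2, the sum depends on the division as well. In other d and n pairs all counts were assigned to the d copy: Trav14d-1 had 158 and 168 counts while Trav14n-1 had 0 in both, and Trav12d-1 had 39 and 36 while Trav12n-1 had 0. Likewise Trav15d-1-dv6d-1 had 65 and 89 counts and Trav15n-1 had 0. Trav14n-1, Trav12n-1 and Trav15n-1 had 0% unshared windows, so their 0 does not show that the segments were silent. The deposited upper bounds allowed Trav14n-1 2.30 and 1.78 TPM. Of 103 segments, 29 had 0% unshared windows, and these held 20.5% and 19.5% of the V sum.

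Trav11, which encodes the alpha chain V region of the invariant receptor of natural killer T cells, was an extreme case. Trav11 had 16 counts in replicate 1 and 0 in replicate 2, whereas its copy Trav11d had 0 in replicate 1 and 14 in replicate 2. Trav11 had 0.410% of its windows unshared and Trav11d had 0%. Together they had 16 and 14 counts, or 2.22 and 1.69 TPM, a log2 ratio of 0.25, so the pair was alike in both libraries while each segment alone was not. Trav6-6 and Trav6d-6 behaved in a similar way. Trav6-6 had 68.5 and 37.7 counts and Trav6d-6 72.3 and 86.4, but their sums were 141 and 124.

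**Figure D4:**
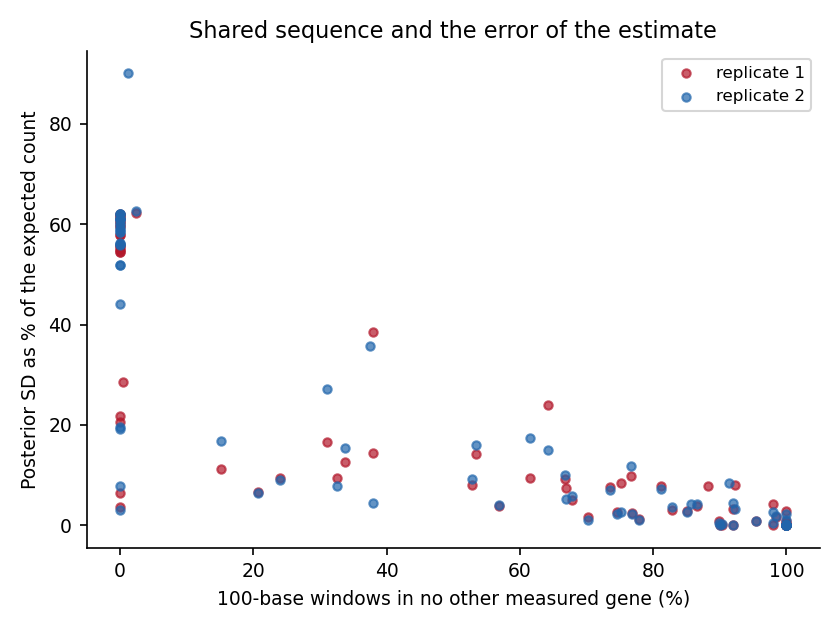
Deposited posterior SD as a percent of the expected count, against the percent of a segment's 100-base windows found in no other measured gene, for V segments with an expected count of at least 10, with each library in its own colour. Segments with all windows unshared lie near 0%, and most of those with none lie between 50% and 65%.

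The deposited posterior SD shows the same property. Over segments with a count above 0, its median was 58.7% of the count in both libraries where no window was unshared (25 and 26 segments), and 0% where at least 90% were (32 and 31 segments). This SD covers only the division of reads. Expected counts were whole in both libraries, within 0.005, for 33 of 103 segments. Whole counts also occurred where reads were divided, as in Trav9d-3 and Trav9n-3.

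All 9 measured dv segments were detected, and together they held 18.8% and 19.9% of the V sum. Their median was 9.09 and 8.80 TPM, against 3.24 and 2.82 TPM for the 94 others. Trav21-dv12, Trav4-4-dv10, Trav13-4-dv7 and Trav6-7-dv9 were the highest. Trav15-1-dv6-1 had 9.09 and 6.91 TPM, Trav15-2-dv6-2 6.22 and 7.23 TPM, and Trav15d-1-dv6d-1 6.93 and 8.80 TPM. The other copies with d were lower, Trav14d-3-dv8 with 4.47 and 4.68 TPM and Trav16d-dv11 with 1.46 and 2.77 TPM. The 6 dv segments without d all lie among the proximal segments, where their median was 13.8 and 16.8 TPM, against 7.87 and 8.28 TPM for the 28 proximal segments without dv. Outside the proximal segments there were 1 distal and 2 middle dv segments. The tables do not tell an alpha from a delta chain. Beside them, the 5 delta V segments without an alpha name summed to 96.6 and 104 TPM.

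Pseudogenes held 2.06% ± 0.102 of the V sum (SD, n = 2). The 2 detected were Trav8-2, with 6.79 and 8.32 TPM, and Trav13-3, with 2.34 and 1.55 TPM. Trav8-2 is represented by a deposited transcript of 2371 nt and one of 336 nt. The long one took 193 and 191 counts and 2.89 and 2.65 TPM. The short one took 27.3 and 42.7 counts and 3.90 and 5.67 TPM. In M21 the Trav8-2 gene spans chr14:53738375-53738838, and its compared transcript has 337 nt. The long transcript exceeds that span, so how far its reads come from the V segment is not known. The other pseudogenes were Trav9n-1 with 0.90 and 1.20 TPM, Trav20, and Trav4d-2 with no count in either library. For Trav4d-2 the limit of 3 counts allows 0.0768 and 0.0722 CPM (counts scaled to the library total), for counting error only.

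Of the 27 functional segments below detection, 6 were the farthest from Trac, 12 were d copies, 6 were n copies and 3 were Trav4-2, Trav11 and Trav18. The d copies ranged over 0 to 1.29 TPM and 0 to 1.75 TPM. Trav7d-3 had 1.29 and 0 TPM, and Trav6d-3 had 0.20 and 1.75 TPM beside Trav6-3, with which it shared nearly all windows. Trav10d had 0.73 and 1.13 TPM and Trav13d-3 0.42 and 1.16 TPM, above the limit in replicate 2 alone. The remaining d copies, Trav6d-4, Trav8d-1, Trav6d-5, Trav11d, Trav9d-2, Trav9d-4 and Trav13d-4, had at most 0.85 TPM except Trav11d, which had 0 and 1.69 TPM. Of the n copies, Trav7n-4 passed the limit in replicate 1 alone, Trav9n-2 had 0.85 and 0.14 TPM, and Trav6n-5, Trav12n-1, Trav14n-1 and Trav15n-1 were at 0 in both libraries. Trav8d-2, with 1.01 and 0.94 TPM and 100% unshared windows, lay just at the limit.

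The V segments were compared between the littermates after scaling with edgeR's TMM method. Of the 31 V segments that averaged 50 or more expected counts, 0 were over 2-fold apart, which is near the 1.36% of all genes at that count and so is no result about the V segments. DESeq2 size factors also gave 0, spike-in scaling gave 5, and no p-value was computed with 1 library per pup. The median log2 ratio, replicate 1 over replicate 2, was −0.04, and the median size of the ratio was 1.17-fold, against 1.1-fold over all genes. These 2 sets were not matched on count, and only 3 V segments averaged 200 or more counts. The sizes therefore do not show that V segments varied more than other genes. The log2 ratio of the V sum was −0.01. Over all 103 segments the Spearman correlation between the libraries was 0.95, as a description.

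**Figure D5:**
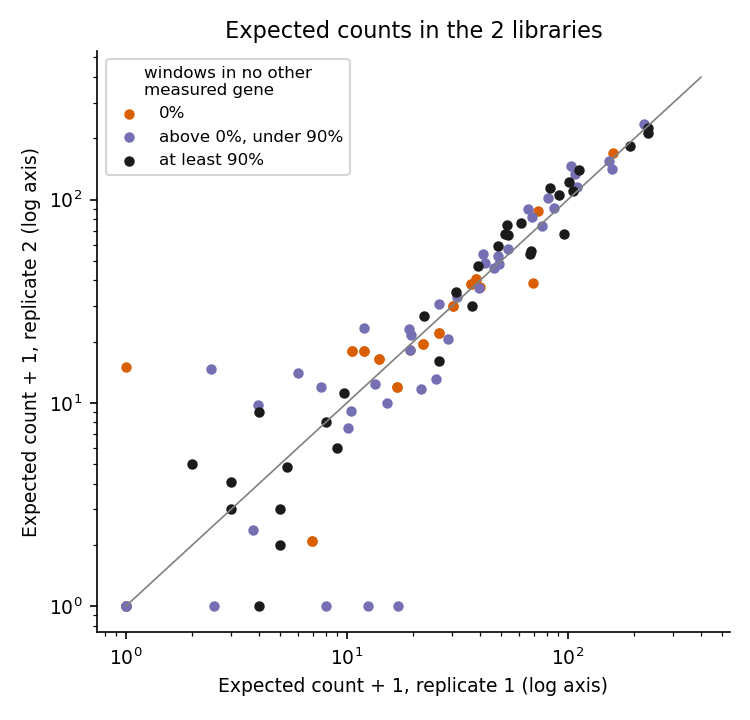
Expected count + 1 of each of the 103 V segments in replicate 2 against replicate 1 (log axes), coloured by the percent of 100-base windows in no other measured gene, with a grey line of equality. Points above 50 counts lie close to the line, apart from Trav6-6, and the points far from it have few counts.

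Among the 31 segments with 50 or more counts on average, the highest ratios toward replicate 1 were those of Trav6-6 (log2 ratio 0.92), Trav5-4 (0.56), Trav7-2 (0.38), Trav15-1-dv6-1 (0.35) and Trav14-3 (0.23). The sum of Trav6-6 and Trav6d-6 had a ratio of 0.25. Trav5-4, with 95.3 and 67 counts, shared no window with its copies. Among the same segments the highest toward replicate 2 were those of Trav4-3 (−0.44), Trav13-4-dv7 (−0.43), Trav14-1 (−0.40), Trav15d-1-dv6d-1 (−0.39) and Trav13-2 (−0.33). Subfamily sums with at least 50 counts, 16 in number, ran from −0.25 for subfamily 19 to 0.59 for subfamily 5.

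Among the receptor loci the alpha V segments were individually low. Their sum was 535 and 525 TPM over 103 segments, against 3641 and 3670 TPM over 34 beta V segments, a ratio of 0.147 and 0.143. Trbv13-2 was the highest beta V segment, with a mean of 332 TPM, against 26.0 TPM for Trav14-2. Beta chains are rearranged earlier, and whether this bears on the ratio was not tested. The 7 gamma V segments summed to 246 and 342 TPM. Their log2 ratio was −0.51, against −0.01 for the alpha V sum. In each library the highest gamma V segment held 54.9% ± 2.56 of its sum, the highest beta V segment 9.21% ± 0.912, and the highest alpha V segment 4.91% ± 0.326 (SD, n = 2 each). These sums run over 7, 34 and 103 segments, and such shares depend on that number.

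The constant regions and partner chains were measured beside Trac. Trac had 478 and 523 TPM, against 3001 and 3016 TPM for Trbc1 and 5055 and 5154 TPM for Trbc2, the beta-chain constant regions. Ptcra, the surrogate alpha chain that pairs with beta before an alpha chain exists, had 97.1 and 99.8 TPM. Of the CD3 chains that carry the receptor to the surface, Cd3g had 795 and 839 TPM, Cd3d 493 and 459 TPM and Cd3e 378 and 450 TPM. Tcrg-C1, a gamma-chain constant region, had 221 and 300 TPM.

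Genes that act on the alpha locus were present. All 11 genes of the recombination list were detected, among them the recombinase genes Rag1 (263 and 279 TPM) and Rag2 (93.5 and 117 TPM) and Dntt, which adds bases at the joins (108 and 118 TPM). All 11 genes of the list of factors that bind the alpha enhancer were also detected, led by Tcf7 with 891 and 1053 TPM. Of the list for the window of alpha rearrangement in double-positive cells 5 of 5 genes were detected, among them Bcl2l1, a survival gene, with 146 and 147 TPM. Over all genes in the tables the share detected was 32.2%. The lists were chosen with earlier results of these data known, so full detection is no result about the alpha locus.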

How the data were processed

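Each of the 2 libraries was made from 10 ng of total RNA of a newborn thymus with spike-ins, molecules over 200 nt being kept, per the labels. The authors deposited expected counts (estimated counts), TPM, FPKM, posterior means and SDs of the counts, TPM bounds, and, for transcripts, the percent of a gene's TPM. The genome was mm10 (per the labels) and the annotation M4 (stated in a deposited text file). Aligner, quantifier and use of strand were not given in the sources used here, so overlapping antisense reads cannot be told apart.

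Members were matched to GENCODE M21 (GRCm38) by gene identifier. The deposited transcripts of Trav6d-6 and Trav14-1 belong in M21 to Trav6n-6 and Trav14n-3; the gene identifier was used. Windows of 100 bases, the length below which the tables gave no effective length, were compared between M21 transcripts. Deposited lengths differed from M21 for some segments, such as Trav9-2 (340 against 563 bases), Trav17 (453 against 341) and a Trav8-2 transcript (2371 against 337). For such segments, and for Trav6d-6 and Trav14-1, the percent of unshared windows may not describe the sequence used for counting. J segments were left out, being shorter than that. Ratios used edgeR 4.0.16 TMM on rounded counts with a prior count of 0.5; DESeq2 1.42.0 size factors, spike-ins and TPM ratios were alternatives. On simulated data over 43346 genes the TMM step recovered 200 of 200 genes changed 4-fold. The changed genes were drawn from those with a mean of at least 50 counts, so smaller changes and lower counts were not covered. Python 3.11.15, pandas 2.3.3, scipy 1.17.1, matplotlib 3.10.9 and R 4.3.3 were used. Floors (3 counts) cover counting error only. The pups are separate animals of 1 litter. Named were Trac, the 15 highest segments, the highest of each subfamily, dv segments, detected pseudogenes, undetected functional segments and the 5 largest differences in each direction, with other genes from the lists. Members and lists were chosen with earlier results of these data known.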

Additional observations from a re-analysis of the deposited data

How the results depend on the processing

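With 1 library per pup and a single group, values had no test. No paired analysis was possible because the samples form 1 group. The recombination signal beside each segment was not run. At 5 TPM 39 V segments were detected, and other thresholds and each library alone gave 70 to 80. With expected counts in place of TPM the V sum was 0.0112% of the total and 0.944 of Trac, subfamily 14 held 17.5%, segments without d or n 72.7%, d copies 17.2%, n copies 10.1%, dv segments 18.3%, pseudogenes 5.86% (the long Trav8-2 transcript is not scaled by length) and proximal segments 66.6%, and alpha V over beta V was 0.138. Without pseudogenes subfamily 14 held 18.4%. With whole counts only, a set that includes some divided segments, segments without d or n held 84.3%, d copies 11.4%, n copies 4.25% and dv segments 28.7%. With at least 90% unshared windows, chosen after seeing the data, they held 92.5%, d copies 4.30% and n copies 3.23%. Spearman's rho with nearness to Trac was 0.671 without pseudogenes, 0.561 without d and n copies, 0.599 for detected segments and 0.0416 over subfamily sums. It was 0.603 to 0.624 in each library alone, and Pearson's r was 0.547 to 0.581, 0.621 with a pseudocount of 1 and 0.510 with 0.01. With spike-in scaling, which rests on 659 and 427 counts and moved the median of all genes to −0.71, 5 V segments passed 2-fold and their median log2 ratio was −0.73. At 10 or more counts 1 of 73 passed, Trav10n. The share of all genes that passed is not given for either setting, so neither count is a result about the V segments. The cause of these shifts was not tested beyond what is stated.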
